A study of Mus musculus with 6 samples.

Results

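The gene set described here comprised 32 mouse genes of sterol and fatty acid synthesis, chosen by name for their role in the pathway, with earlier results of these data known, out of 24736 genes in the expression table. They fell into 5 roles: 5 regulators of the sterol response, 7 enzymes of the mevalonate pathway, 11 enzymes from squalene to cholesterol, 5 genes of sterol transport and 4 genes of fatty acid synthesis and desaturation. All 32 passed the filter on low counts and were tested. The study examined how SOX2 and the response to WNT are linked as pluripotent cells commit to a fate, and the 6 RNA-seq libraries used here came from its wild-type cells.

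The first group was mouse embryonic stem cells (ESCs) at 0 h, undifferentiated wild-type cells kept in knockout DMEM with 10% serum and 1000 U/ml LIF, the cytokine that holds ESCs in the naive pluripotent state. The second was epiblast-like cells (EpiLCs), the same wild-type cells after 48 h without serum or LIF in N2/B27 medium. That medium held bFGF at 10 ng/ml and, at 5 µM, the inhibitor of WNT secretion LGK974. Each group had 3 libraries that the labels number as biological replicates, called ESC 1 to ESC 3 and EpiLC 1 to EpiLC 3 below. The parental ESC line of the study is HM1 TetON, which expresses the rtTA transactivator constitutively from the Rosa26 locus, so the cells were those of 1 line. ESCs were grown on feeder cells, which the culture methods removed by their adhesion before differentiation. Serum, LIF, feeder cells, the basal medium, bFGF, LGK974 and 48 h of culture differed together between the groups, and their parts in any difference below cannot be told apart. The culture methods also give a longer time for EpiLCs than the labels do.

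Cells make cholesterol from acetyl-CoA through the mevalonate pathway, squalene and a series of sterol intermediates. The pathway is held in check by its product. When membrane sterol is low, the escort protein SCAP carries the SREBP transcription factors (encoded by Srebf1 and Srebf2) from the endoplasmic reticulum to the Golgi, where they are cleaved and released to the nucleus to switch on synthesis genes, whereas INSIG proteins retain them when sterol is plentiful. Oxidised sterols also act through the liver X receptors (LXRs), whose targets include the cholesterol exporters Abca1 and Abcg1.

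Levels are given below as TPM, transcript levels that the authors scaled for transcript length and library size, so that genes can be compared with each other. Fold changes are EpiLC against ESC on the log2 scale with their standard error (SE), from edgeR's quasi-likelihood test on expected counts, and a gene was called where its Benjamini-Hochberg adjusted p over 14468 tested genes was at most 0.05. Every adjusted p below comes from that test unless another is named.

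Most genes of the set were higher in EpiLCs. Of the 32 members, 24 rose, 3 fell and 5 were not called, beside 22.6% of all tested genes that rose, 22.8% that fell and 45.4% that did either. Of the members, 18 rose with a log2 fold change above 1, where 8.78% of tested genes did, and 1 fell below -1, where 11.5% did. The median log2 fold change of the members was 1.27 and that of all tested genes was -0.00. Every EpiLC library was above every ESC library in TPM for 26 members, as for 33.8% of tested genes, and below for 3 members, as for 25.6% of tested genes. The summed level of the set was 2473, 2023 and 2333 TPM in the ESC libraries and 6297, 6084 and 4971 TPM in the EpiLC libraries, a 2.54-fold difference with no overlap. It made up 0.228% of all TPM in ESCs and 0.578% in EpiLCs. In bulk RNA, fewer cells with a transcript and less of it per cell cannot be told apart.

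**Figure D1:**
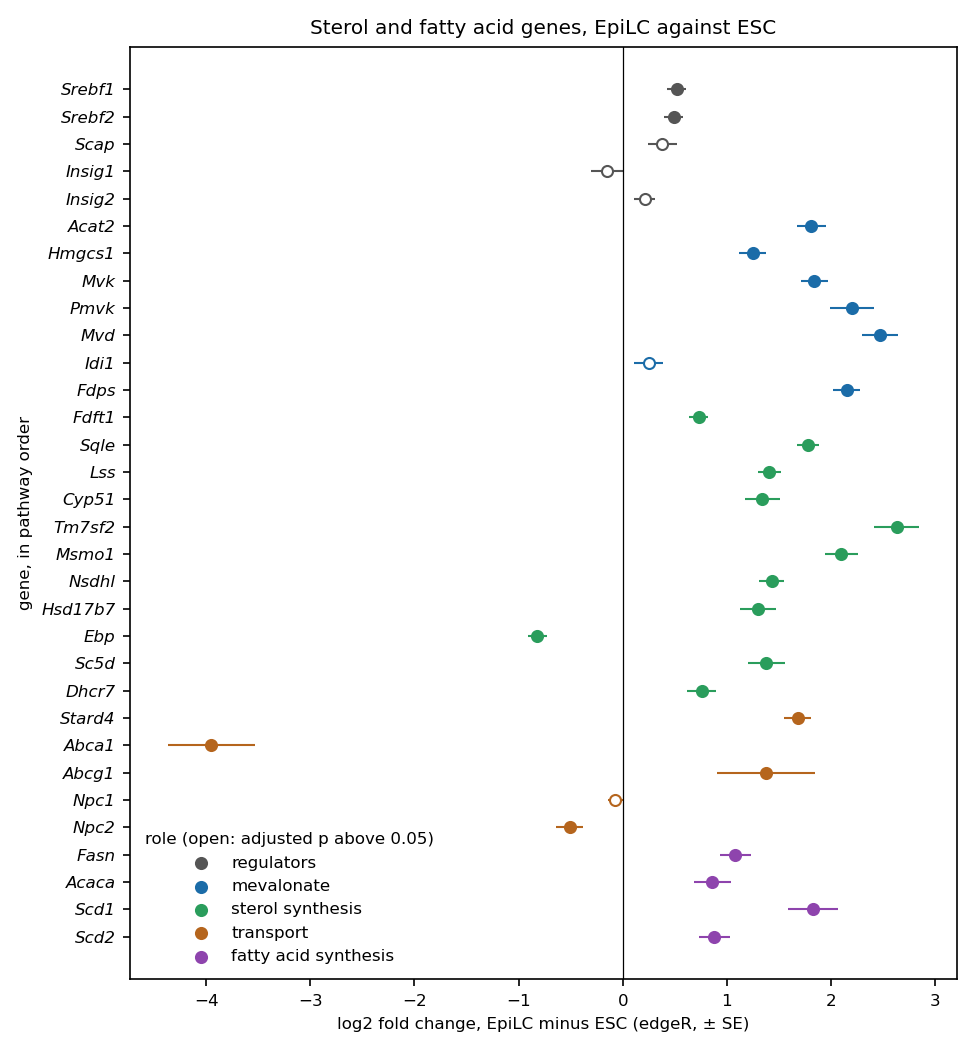
Log2 fold change of each of the 32 members, EpiLC against ESC, with SE, in pathway order and coloured by role, with filled points for genes called at an adjusted p of at most 0.05 and open points for the others. The mevalonate and sterol synthesis enzymes lie to the right of 0 but for Ebp, and the called genes to the left are Ebp, Abca1 and Npc2.

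**Figure D2:**
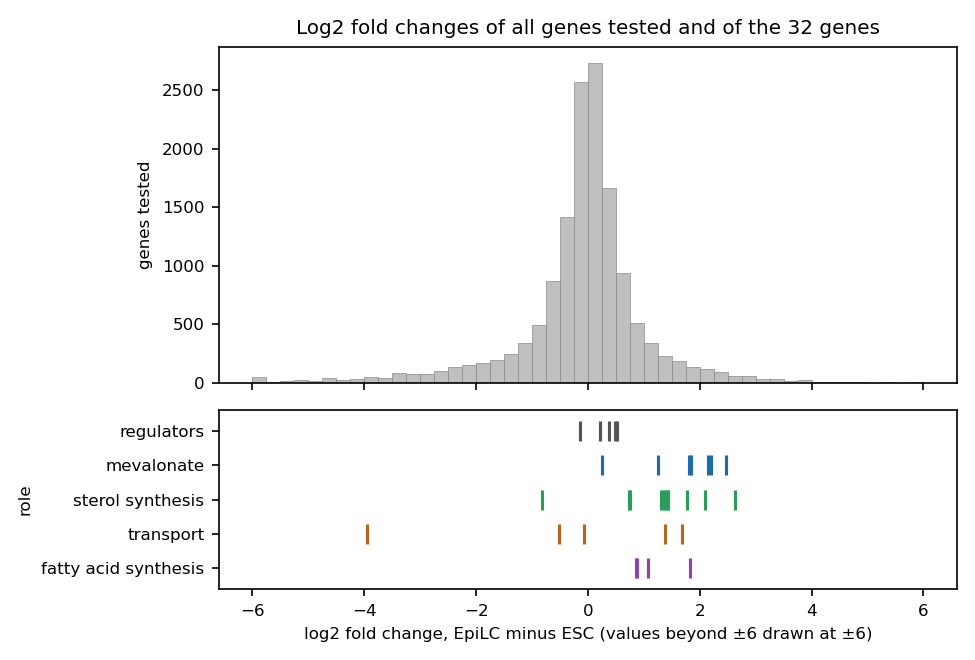
Distribution of log2 fold change over the 14468 tested genes, with a tick for each of the 32 members under it, in 1 line per role, and values beyond 6 in either direction drawn at 6. The median of all tested genes was -0.00 and that of the members 1.27.

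Promoter sequences were read to show what the members carried just before their starts. RefSeq promoter windows of GRCm38.p6, from 250 bases before to 50 bases after the start, were matched for 24 of the 32 members, giving 32 windows. Fdps, Fdft1, Sqle, Stard4, Abcg1, Npc1, Scd1 and Scd2 are named only. Both strands were searched for CACNCCA, the core of a sterol regulatory element, for CCAAT, the box bound by NF-Y, for GGGCGG, the box bound by SP1, and for the E-box CACGTG. The 7 stretches below are those of a regulator (Srebf2), a retention factor (Insig1), 3 mevalonate enzymes that rose (Hmgcs1, Pmvk, Mvd), and 2 genes that fell (Ebp, Abca1). They are written 5′ to 3′ on the strand of the gene and stop before any annotated exon, and capitals mark CACNCCA or CCAAT on either strand.
Srebf2, chr15:82147019-82147180, plus strand: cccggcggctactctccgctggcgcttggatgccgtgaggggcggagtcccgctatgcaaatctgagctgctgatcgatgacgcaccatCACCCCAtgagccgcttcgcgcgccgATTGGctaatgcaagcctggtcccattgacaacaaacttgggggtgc
Insig1, chr5:28071162-28071362, plus strand: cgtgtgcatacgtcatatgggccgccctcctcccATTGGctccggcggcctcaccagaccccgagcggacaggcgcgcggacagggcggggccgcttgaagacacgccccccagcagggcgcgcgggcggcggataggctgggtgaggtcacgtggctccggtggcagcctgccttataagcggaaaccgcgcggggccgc
Hmgcs1, chr13:119690101-119690350, plus strand: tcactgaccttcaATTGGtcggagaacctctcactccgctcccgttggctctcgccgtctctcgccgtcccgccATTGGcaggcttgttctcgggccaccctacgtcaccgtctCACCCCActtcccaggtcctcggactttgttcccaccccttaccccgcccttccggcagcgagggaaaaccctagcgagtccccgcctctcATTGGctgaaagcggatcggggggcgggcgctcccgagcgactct
Pmvk, chr3:89454291-89454540, plus strand: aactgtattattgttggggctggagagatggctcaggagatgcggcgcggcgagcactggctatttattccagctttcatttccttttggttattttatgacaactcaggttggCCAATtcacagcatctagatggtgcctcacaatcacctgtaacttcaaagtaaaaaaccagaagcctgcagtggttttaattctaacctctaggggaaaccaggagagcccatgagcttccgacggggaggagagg
Mvd, chr8:122443423-122443672, minus strand: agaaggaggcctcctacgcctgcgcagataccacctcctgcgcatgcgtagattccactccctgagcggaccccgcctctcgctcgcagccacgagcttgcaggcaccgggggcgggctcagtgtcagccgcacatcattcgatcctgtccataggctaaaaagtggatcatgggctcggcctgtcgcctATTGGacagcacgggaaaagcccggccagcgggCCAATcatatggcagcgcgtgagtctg
Ebp, chrX:8193513-8193762, minus strand: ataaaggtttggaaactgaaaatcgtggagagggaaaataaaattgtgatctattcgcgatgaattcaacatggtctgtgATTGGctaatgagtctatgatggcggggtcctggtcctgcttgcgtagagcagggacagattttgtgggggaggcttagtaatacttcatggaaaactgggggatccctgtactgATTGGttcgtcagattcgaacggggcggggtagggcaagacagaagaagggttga
Abca1, chr4:53159989-53160145, minus strand: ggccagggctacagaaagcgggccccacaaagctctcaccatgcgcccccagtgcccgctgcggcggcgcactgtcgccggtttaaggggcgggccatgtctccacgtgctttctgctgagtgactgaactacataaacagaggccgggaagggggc

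In the Srebf2 stretch the sterol regulatory element core began 161 bases before the start, with a CCAAT box 135 bases before it. The Hmgcs1 stretch had its core 136 bases before the start among 3 CCAAT boxes. Mvd and Ebp each had 2 CCAAT boxes and no core, although Mvd rose and Ebp fell. Over all windows of the members, 65.6% held a CCAAT box (21 of 32), against 37.4% of 32851 mouse promoters and 37.9% of the 14264 promoters of tested genes. The SP1 box was in 78.1% of the members' windows, 35.7% of all promoters and 62% of those of tested genes. The E-box was in 21.9%, 7.15% and 9.74% of the same windows, and the sterol regulatory element core in 21.9%, 18.4% and 18.1%. The only overlap between 2 different motifs was that of a core and a CCAAT box in Insig2, and 2 CCAAT boxes overlapped each other in Fasn. A CCAAT box was present for 15 of the 17 matched members that rose, 2 of the 3 that fell and 3 of the 4 not called, so it was found on both sides of the expression call. The core was found for Srebf2, Acat2, Hmgcs1 and Msmo1, which rose, and for Insig1 and Insig2, which were not called. These matches describe letters in a short window and were not read as binding.

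Of the 5 regulators, 2 rose, 0 fell and 3 were not called, beside 22.6% of all tested genes that rose and 22.8% that fell. Their median log2 fold change was 0.38. Their summed level was 265 ± 21.3 TPM in the ESC group and 333 ± 8.95 TPM in the EpiLC group. Srebf2, whose product SREBP2 chiefly drives cholesterol genes, was at 120, 99.4 and 117 TPM in the ESC libraries and 172, 170 and 147 TPM in the EpiLC libraries. It rose by 0.49 ± 0.09 (SE, adjusted p = 0.00595), a 1.4-fold difference. Srebf1, whose product SREBP1 chiefly drives fatty acid genes, was at 25.7, 27.9 and 29.6 TPM and 42.8, 43.4 and 37.9 TPM in the same order, and rose by 0.52 ± 0.09 (adjusted p = 0.00331). For both genes the lowest EpiLC library was above the highest ESC library.

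Scap, the escort protein, was at 18.5, 22 and 14.5 TPM in the ESC libraries and 24.7, 25.4 and 24.4 TPM in the EpiLC libraries, so the groups did not overlap. Its log2 fold change of 0.38 ± 0.14 nevertheless missed the threshold (adjusted p = 0.0649, 95% interval 0.04 to 0.71). Without ESC 2, the highest of its group, the change was called at 0.53 (adjusted p = 0.00745), and without ESC 3, the lowest, it was 0.25 (adjusted p = 0.0777). With all 6 libraries it was called under upper-quartile normalisation (adjusted p = 0.0407) and by DESeq2 (adjusted p = 0.036).

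Neither of the retention factors passed the main test. Insig1, itself a classical SREBP target, was at 108, 79.5 and 94 TPM in ESCs and 87.6, 75.5 and 100 TPM in EpiLCs, with overlapping groups. Its log2 fold change was -0.15 ± 0.15 (adjusted p = 0.441), and its 95% interval of -0.49 to 0.20 lay below the lower interval bound of each mevalonate enzyme that rose. It ranged from -0.26 to -0.03 when any 1 library was left out, and with both ESC 2 and EpiLC 3 out it was called lower (-0.37, adjusted p = 0.049). Insig2, the second retention factor, was at 12.8, 14 and 13.4 TPM and 16.5, 15.9 and 16.2 TPM, a change of 0.21 ± 0.10 (adjusted p = 0.111, 95% interval -0.02 to 0.44), and limma on log2 TPM called it higher with a pseudocount of 1 (adjusted p = 0.026) and of 0.1 (adjusted p = 0.0296). The ratio of Insig1 to Insig2 was 7.05 on average in ESCs and 5.42 in EpiLCs, a log2 difference of -0.37 (exact permutation p = 0.2, 2-sided, n = 3 per group, adjusted p = 0.267 over 4 pairs).

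The mevalonate pathway turns acetyl-CoA into the isoprenoid farnesyl diphosphate. Of its 7 members, 6 rose, all by more than 1 on the log2 scale, as did 8.78% of all tested genes, and 1 was not called. Their summed level was 760 ± 80.6 TPM for the ESC libraries and 2493 ± 318 TPM for the EpiLC libraries (SD over 3 libraries each), a 3.28-fold difference.

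The first condensations of acetyl units are made by Acat2, a cytosolic thiolase, and Hmgcs1, the HMG-CoA synthase. Acat2 was at 105, 83.6 and 96.9 TPM in ESCs and 382, 375 and 281 TPM in EpiLCs and rose by 1.81 ± 0.14 (adjusted p = 0.000192). Part of its counts were divided with near copies in all 6 libraries, so its values depend on how RSEM shared them. As shared, the neighbouring copy Acat3 held at most 57.9 counts in any library and Acat2 at least 1357. Hmgcs1 was at 261, 189 and 211 TPM and 609, 515 and 497 TPM and rose by 1.25 ± 0.13 (adjusted p = 0.000605). In neither gene did the groups overlap, and in both ESC 2 and EpiLC 3 were the lowest of their group.

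Mevalonate is phosphorylated by the kinases Mvk and Pmvk and decarboxylated by Mvd. Mvk was at 17.8, 17.4 and 18.1 TPM in ESCs and 75.8, 67.4 and 55.2 TPM in EpiLCs, and rose by 1.84 ± 0.13. Pmvk was at 45.2, 37.3 and 48.8 TPM and 229, 242 and 143 TPM and rose by 2.20 ± 0.21. Mvd, the decarboxylase, had the largest change of the mevalonate members, from 42.1, 37.4 and 44.2 TPM to 266, 269 and 178 TPM, 5.55-fold and 2.47 ± 0.17 on the log2 scale (adjusted p = 0.000133). The 3 ESC libraries of Mvk lay close together, while EpiLC 3 was the lowest EpiLC library for all 3 of these genes.

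The last steps are taken by the isomerase Idi1 and by Fdps, the farnesyl diphosphate synthase. Idi1 was at 155, 141 and 130 TPM in ESCs and 171, 145 and 207 TPM in EpiLCs, and its groups overlapped. Its change of 0.25 ± 0.14 was not called (adjusted p = 0.182, 95% interval -0.08 to 0.58), and it was called at 0.38 without EpiLC 2 (adjusted p = 0.0489) but was 0.10 without EpiLC 3 (adjusted p = 0.493). Fdps (chr3:89093588-89101967) was at 213, 172 and 215 TPM in ESCs and 996, 1007 and 769 TPM in EpiLCs, rising 4.45-fold (log2 2.15 ± 0.13, adjusted p = 9.94e-05). With a mean of 924 TPM it was the most abundant of the 32 transcripts in EpiLCs, whereas in ESCs Scd2 (361 TPM) and Hmgcs1 (220 TPM) were above it, the latter by less than the spread between libraries.

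**Figure D3:**
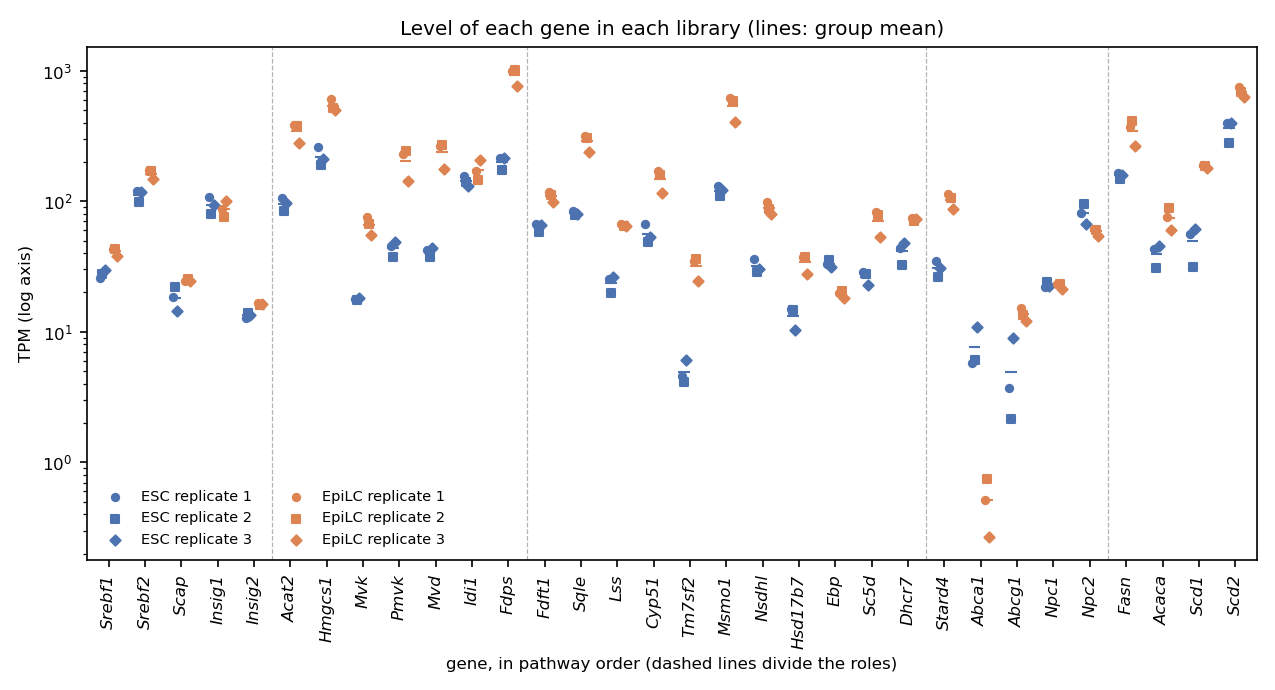
Level of each of the 32 members in each of the 6 libraries, in TPM on a log axis, with dashed lines between the roles, ESC libraries in blue, EpiLC libraries in orange, a marker shape for each replicate and a short line at the group mean. Fdps is the highest of the members in EpiLCs at 769 to 1007 TPM, and Abca1 is the lowest at 0.27 to 0.75 TPM.

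Downstream of farnesyl diphosphate, 10 of the 11 enzymes of sterol synthesis rose and 1, Ebp, fell, beside 22.6% and 22.8% of all tested genes. Their summed level was 495 ± 39.7 TPM for ESCs and 1464 ± 232 TPM for EpiLCs, a 2.96-fold difference, and their median log2 fold change was 1.38. Squalene is made by Fdft1, the squalene synthase, which was at 66.5, 57.9 and 65.4 TPM in ESCs and 117, 112 and 98.6 TPM in EpiLCs and rose by 0.73 ± 0.09 (adjusted p = 0.000897). Sqle, the squalene epoxidase and a rate-limiting enzyme, was at 84.1, 78.8 and 79.2 TPM and 317, 307 and 239 TPM and rose by 1.78 ± 0.11 (adjusted p = 9.3e-05). Lss, which closes the ring to lanosterol, was at 25.2, 19.7 and 26.1 TPM and 66.6, 64.6 and 64.7 TPM and rose by 1.41 ± 0.11. None of the 3 had overlapping groups.

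Lanosterol is then demethylated and its double bonds are rearranged. Cyp51, the lanosterol demethylase, was at 67.1, 49 and 53.5 TPM in ESCs and 171, 158 and 116 TPM in EpiLCs and rose by 1.34 ± 0.17. Tm7sf2, a sterol C14 reductase (chr19:6062821-6067850), was the member with the largest rise, from 4.57, 4.13 and 6.04 TPM to 35, 36.2 and 24.4 TPM, 6.19-fold and 2.63 ± 0.22 on the log2 scale (adjusted p = 0.000262). It was also the least abundant of the sterol synthesis enzymes in ESCs, with as few as 47 counts in a library. The interval of its fold change, 4.3 to 8.93, overlapped that of Mvd, 4.21 to 7.32.

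The C4 methyl groups are removed by Msmo1, Nsdhl and Hsd17b7 in turn. Msmo1, the methyl sterol oxidase, was at 131, 109 and 121 TPM in ESCs and 616, 587 and 406 TPM in EpiLCs and rose 4.29-fold (log2 2.10 ± 0.16, adjusted p = 0.000203). Nsdhl, the dehydrogenase, was at 36, 28.7 and 30.3 TPM and 99.1, 87.5 and 79.3 TPM and rose by 1.43 ± 0.12. Hsd17b7, the ketosteroid reductase, was at 15, 14.6 and 10.4 TPM and 37.1, 37.3 and 27.7 TPM and rose 2.47-fold (adjusted p = 0.00125). Every EpiLC library of these 3 genes was above every ESC library.

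Ebp, the isomerase that shifts the double bond of the sterol ring, went against the other enzymes of sterol synthesis in the set. It was at 33.2, 35.2 and 31.5 TPM in the ESC libraries and 19.7, 20.7 and 18.2 TPM in the EpiLC libraries, and fell by 0.82 on the log2 scale (SE 0.09, adjusted p = 0.000705), 1.77-fold lower in EpiLCs. Its libraries lay close together within each group, and its log2 fold change stayed between -0.85 and -0.77 when any 1 library was left out. Both later enzymes in the set rose. Sc5d, the desaturase, was at 28.6, 27.5 and 22.7 TPM in ESCs and 82.2, 77.8 and 52.8 TPM in EpiLCs, a rise of 1.38 ± 0.18. Dhcr7, the reductase deficient in Smith-Lemli-Opitz syndrome, was at 43.9, 32.4 and 47.7 TPM and 74, 71 and 73.3 TPM, a smaller rise of 0.76 ± 0.14 (adjusted p = 0.00533).

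**Figure D4:**
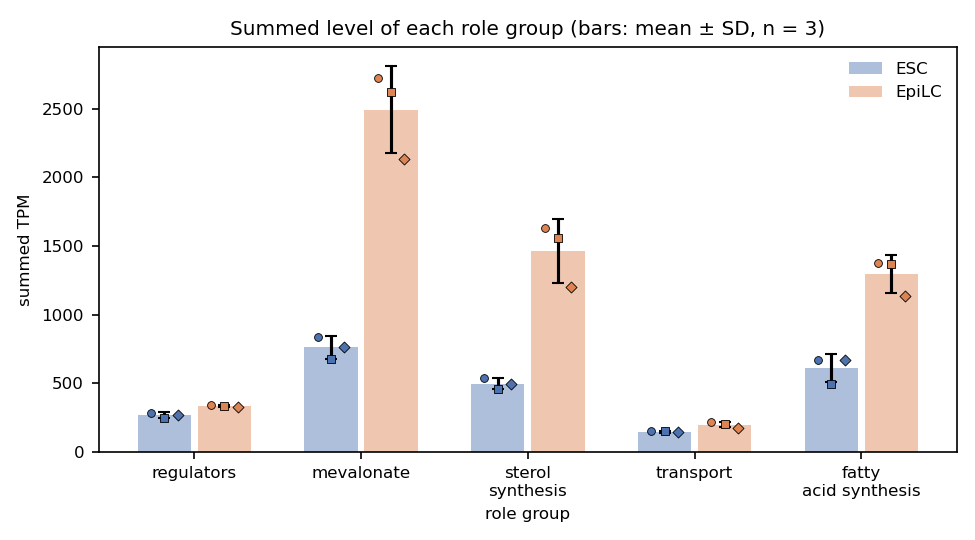
Summed TPM of the members of each of the 5 roles, with a point for each library and bars and error bars for the mean and SD of each group, on a linear axis from 0. The mevalonate sums were 678 to 839 TPM in ESCs and 2132 to 2728 TPM in EpiLCs, while the regulator sums were 243 to 285 TPM and 326 to 343 TPM.

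Of the 5 transport genes, 2 rose, 2 fell and 1 was not called, beside 22.6% of all tested genes that rose and 22.8% that fell. Their sum was 147 ± 7.16 TPM in ESCs and 198 ± 20.5 TPM in EpiLCs. Stard4, a soluble carrier of sterol and an SREBP target, was at 34.9, 26.4 and 31 TPM in ESCs and 114, 106 and 86.9 TPM in EpiLCs and rose by 1.68 ± 0.13 (adjusted p = 0.000214). Npc1, which lets cholesterol out of the late endosome, was at 22.1, 23.9 and 22.6 TPM and 23.4, 23.1 and 21.1 TPM with overlapping groups, a change of -0.07 ± 0.07 (adjusted p = 0.426) with a narrow 95% interval of -0.24 to 0.09. Its soluble partner Npc2 was at 81, 95.7 and 66.5 TPM and 61.7, 60.2 and 54.5 TPM and fell by 0.51 (SE 0.13, adjusted p = 0.0157). That call was lost without EpiLC 2 (-0.51, adjusted p = 0.0522) or EpiLC 3 (-0.46, adjusted p = 0.0606).

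The exporters Abca1 and Abcg1, both LXR targets, went in opposite directions. Abca1, which loads cholesterol onto apolipoproteins, was at 5.81, 6.13 and 10.9 TPM in the ESC libraries and 0.51, 0.75 and 0.27 TPM in the EpiLC libraries. It fell by 3.95 on the log2 scale (SE 0.42, adjusted p = 0.000593) and was 15.5-fold lower in EpiLCs, the largest change of any member in either direction. Abcg1 (chr17:31057694-31117984), which passes cholesterol to lipoprotein particles, was at 3.71, 2.13 and 8.97 TPM in ESCs and 15.2, 13.4 and 12.1 TPM in EpiLCs. The ESC libraries of Abcg1 were widely spread, and its rise of 1.38 ± 0.47 only just passed (adjusted p = 0.048). It was no longer called without ESC 1 (1.19, adjusted p = 0.141) or without any 1 of the EpiLC libraries (1.3 to 1.46, adjusted p from 0.0931 to 0.126). Without ESC 3, the highest of its group, the rise was 2.17 (adjusted p = 0.00111). The ratio of Abca1 to Abcg1 was 1.57, 2.88 and 1.21 in the ESC libraries and 0.0335, 0.0558 and 0.0224 in the EpiLC libraries. This log2 difference of -5.67 had an exact permutation p of 0.1, the smallest that 3 against 3 libraries allow (2-sided, adjusted p = 0.2 over 4 pairs).

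**Figure D5:**
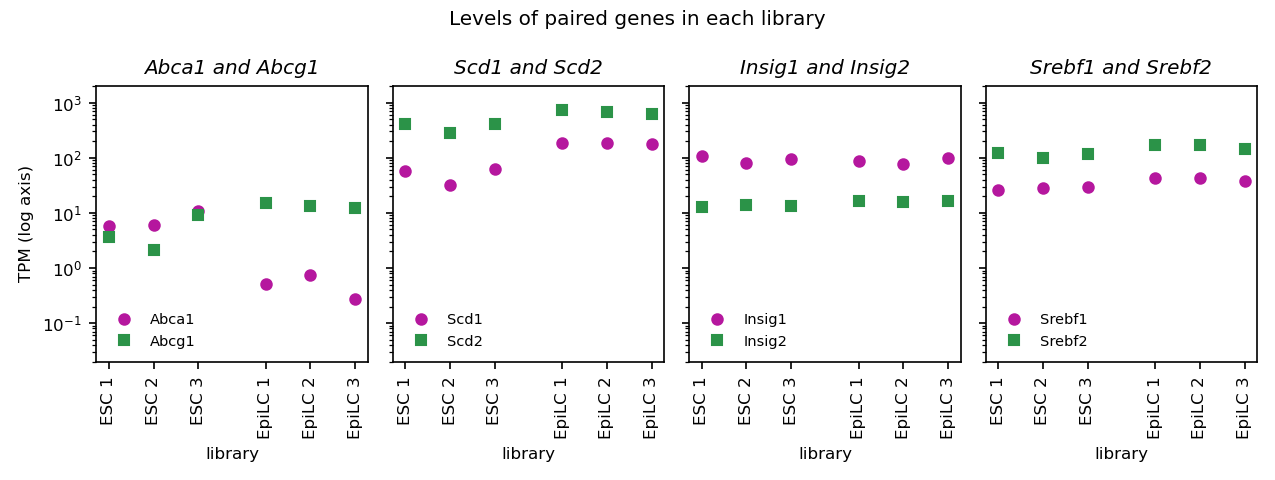
Level of both genes of 4 pairs of related members in each library, in TPM on a log axis. Abca1 lies above Abcg1 in all 3 ESC libraries and below it in all 3 EpiLC libraries, whereas the order within the other 3 pairs is the same in all 6 libraries.

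All 4 genes of fatty acid synthesis rose, as did 22.6% of all tested genes. Their summed level went from 608 ± 101 TPM to 1296 ± 136 TPM, 2.13-fold. Acaca, the acetyl-CoA carboxylase that makes malonyl-CoA, was at 42.8, 30.7 and 45.1 TPM in ESCs and 75.4, 88 and 60.2 TPM in EpiLCs and rose by 0.86 ± 0.18 (adjusted p = 0.00863). Fasn, the fatty acid synthase that builds palmitate from it, was at 166, 148 and 159 TPM and 368, 409 and 264 TPM and rose by 1.08 ± 0.15 (adjusted p = 0.00158). In both genes EpiLC 3 was the lowest EpiLC library and still above every ESC library.

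Scd1 and Scd2 are stearoyl-CoA desaturases that make monounsaturated fatty acids. Scd2 was the more abundant of the pair in every library, at 401, 281 and 401 TPM in ESCs and 746, 689 and 634 TPM in EpiLCs, and rose by 0.88 ± 0.15 (adjusted p = 0.00339). Scd1 was at 56.4, 31.5 and 61.7 TPM and 188, 185 and 181 TPM and rose by 1.83 ± 0.24 (adjusted p = 0.00122). The ratio of Scd1 to Scd2 went from 0.136 to 0.268 on average, a log2 difference of 1.00 (exact permutation p = 0.1, the smallest possible, adjusted p = 0.2). By contrast the ratio of Srebf1 to Srebf2 was 0.25 and 0.254 (log2 difference 0.03, exact permutation p = 0.8). Reads of both Scd genes were partly divided with near copies in all 6 libraries, so each value depends on how RSEM shared them.

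Related lists of genes outside the 32 put these values beside other parts of lipid metabolism. Of 17 other lipid genes known as SREBP targets, 16 were tested, 11 rose and 0 fell, beside 22.6% and 22.8% of all tested genes, with a median log2 fold change of 0.61. The most changed was Fads2, a desaturase of polyunsaturated fatty acids, at 57.5, 39.5 and 56.3 TPM in ESCs and 322, 303 and 252 TPM in EpiLCs (2.46 ± 0.17). Elovl6, which lengthens palmitate, changed by 1.23 ± 0.11, and Me1, a malic enzyme that supplies NADPH, by 1.13 ± 0.23.

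Of 16 tested genes of LXR signalling, sterol uptake, esterification and transfer, 2 rose and 4 fell, beside 22.6% and 22.8% of all tested genes, and the median was -0.11. Apoe, the apolipoprotein that accepts cholesterol from exporters, went from 571, 613 and 806 TPM to 192, 167 and 194 TPM (-1.89 ± 0.15, adjusted p = 0.000214). The lipoprotein receptor Lrp1 fell from 22.3, 41 and 17 TPM to 8.82, 11.7 and 6.69 TPM, while its relative Lrp8 rose from 7.09, 5.68 and 5.7 TPM to 19, 19.3 and 15.4 TPM. Among 12 genes that take isoprenoids from the pathway for prenylation, ubiquinone and dolichol, 1 rose and 2 fell, beside the same 22.6% and 22.8% of all tested genes, with a median of 0.02. They were Pdss1 (0.32 ± 0.10), Rabggtb (-0.46 ± 0.07) and Fntb (-0.45 ± 0.09).

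Fatty acid oxidation, the opposite of synthesis, had 4 genes that rose and 8 that fell out of 15, beside 22.6% and 22.8% of all tested genes, with a median of -0.43. Its summed level was 604 ± 28.9 TPM for ESCs and 592 ± 3.44 TPM for EpiLCs. The gene changed most was Cpt1a, the carnitine palmitoyltransferase that admits fatty acids to mitochondria, at 19.7, 26.9 and 30.1 TPM in ESCs and 1.8, 2.56 and 1.7 TPM in EpiLCs (-3.71 ± 0.23, adjusted p = 9.64e-05). Slc25a20, the carnitine carrier that works with it, changed by -0.95 ± 0.19 and Acadvl, an acyl-CoA dehydrogenase, by -0.75 ± 0.22. The 4 that rose, named after their values were seen, were Acadl (0.71 ± 0.10), Cpt2 (0.51 ± 0.12), Hadh (0.39 ± 0.11) and Echs1 (0.39 ± 0.09).

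The members that rose mostly shared the lowest library within each group. Of the 24 members that rose, 22 (91.7%) had their lowest EpiLC level in EpiLC 3, against 50.2% of the 3243 other genes that rose. The median ratio of EpiLC 3 to the mean of the other EpiLC libraries was 0.77 for these members and 0.962 for the other genes that rose. In ESCs, 21 of the 24 (87.5%) were lowest in ESC 2, against 41.5% of the other genes that rose. The shared lowest library was not particular to the members, since of the 11 other SREBP target genes that rose 10 were lowest in EpiLC 3 and 10 in ESC 2. Insig1 and Idi1, neither of them called, had their highest EpiLC level in EpiLC 3 instead. Members of a pathway are not independent, so these shares are a description of 6 libraries.

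The libraries held between 16967741 and 35096210 expected counts, and ESC 2 was the shallowest. Markers of cell state followed the labels. All 6 naive pluripotency markers fell and all 5 epiblast markers rose, beside 22.8% and 22.6% of all tested genes. In EpiLC 1 to EpiLC 3 the naive markers summed to 47.1, 48 and 67.3 TPM, and Nanog was at 7.72, 5.95 and 22.5 TPM. The epiblast markers summed to 2055, 2107 and 2125 TPM in the same libraries. Of 6 primitive endoderm markers, 4 fell, beside 22.8% of all tested genes. The sum of all 6 was 32.4 to 56.1 TPM in ESCs and 10.1 to 10.5 TPM in EpiLCs. Of 13 fibroblast markers, which feeder cells would carry, 11 were tested. Among these, 0 rose, 5 fell and 6 were not called, beside 22.6% of all tested genes that rose and 22.8% that fell. The sum of all 13 was 323, 1481 and 115 TPM in the ESC libraries and 92.2 to 101 TPM in the EpiLC libraries. In ESC 2, Col1a1, Acta2 and Col1a2 held most of it, at 489, 415 and 412 TPM. Lum and Fap, the markers not tested, were at most 0.18 and 0.05 TPM in any library. The order of the fibroblast sum in ESCs (ESC 2, ESC 1, ESC 3, from the highest) was also that of the members Npc2, Scap and Ebp. Among the other lipid genes named, it was that of Lrp1, Fntb and Acadvl. How many of all tested genes shared that order was not counted, so these matches have no background beside them. ESC 2 was the lowest for most members that rose. The part of fibroblast RNA in these differences was not tested. With both ESC 2 and EpiLC 3 left out, 24 members were called higher and 3 lower, Scap and Insig1 having gained a call and Abcg1 and Npc2 having lost theirs.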

How the data were processed

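RNA-seq libraries of wild-type mouse ESCs at 0 h and EpiLCs at 48 h were analysed, with 3 biological replicates each. The authors sequenced strand-specific single-end polyA libraries, trimmed adapters with cutadapt 1.16, mapped reads with STAR 2.5.2a and quantified mm10 RefSeq genes with RSEM 1.3.0. DESeq2 1.16.1 is also listed in the submitters' processing notes. The authors deposited expected counts, which are not normalised and divide reads between similar genes, so that 4.27% to 4.65% of values per library were not whole, and TPM, scaled for length and library.

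Expected counts were rounded, filtered with filterByExpr (14468 of 24736 genes kept), normalised by TMM (factors 0.979 to 1.02) and tested with edgeR 4.0.16's quasi-likelihood test in R 4.3.3. P-values were adjusted by Benjamini-Hochberg over all tested genes at 0.05. A floor of 3 counts was 0.0855 to 0.177 CPM. Sums and ratios used deposited TPM. Intervals of fold changes are 95% intervals of the fit. All 32 members were named, as were, for each related list reported, up to 3 called genes with the largest change and a mean of at least 1 TPM. Members and lists were chosen with earlier results of these data known. Scripts were tested on simulated data. The alternatives were other normalisations, filters, DESeq2 1.42.0, limma 3.58.1 on log2 TPM, a replicate block and leaving out libraries. Leaving out ESC 2 and EpiLC 3 together was chosen after seeing the data. No reads were realigned. Other genes of these pathways, and a list of SREBP processing genes, are not reported here.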

Additional observations from a re-analysis of the deposited data

How the results depend on the processing

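Across 15 alternatives, 463 values of single members kept their direction and side of the threshold, 8 gained a call, 9 lost one and 0 changed direction. Leaving out each library in turn gave 23 to 25 members called higher, 2 to 3 called lower and a median of 1.09 to 1.36, the lowest without ESC 2. Over all genes it gave 2144 to 3572 called higher and 2100 to 3609 called lower, the fewest without EpiLC 1. It gave summed levels, EpiLC over ESC, of 1.2 to 1.3 for regulators, 3.11 to 3.52 for mevalonate, 2.78 to 3.22 for sterol synthesis, 1.29 to 1.42 for transport and 1.94 to 2.26 for fatty acid synthesis. The mevalonate sum was 2.72-fold in CPM in place of TPM, which does not divide by transcript length. The log2 difference of the Srebf1 to Srebf2 ratio ranged from -0.07 (without ESC 1) to 0.12, and those of the other ratios from -0.52 to -0.23 (Insig1 to Insig2), 0.86 to 1.09 (Scd1 to Scd2) and -6.01 to -5.31 (Abca1 to Abcg1).

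The calls that changed were those of 6 genes. Scap was called under upper-quartile normalisation (adjusted p = 0.0407), with DESeq2 (0.036), without ESC 2 (0.00745) and without both ESC 2 and EpiLC 3 (0.0239). Its adjusted p ranged up to 0.147. Insig2 was called by limma on log2 TPM (0.026 and 0.0296), Idi1 without EpiLC 2 and Insig1 with both libraries out (-0.37, 0.049). Npc2 lost its call by limma with a pseudocount of 0.1 (0.0574), without EpiLC 2 or EpiLC 3 and with both libraries out (0.0523). Abcg1 lost its own in 4 of the 6 fits that left out 1 library and with both out (0.083). With the replicate number as a block, 24 members were called higher and 3 lower, and over all genes 2979 and 3106. The deviations of same-numbered libraries from their group means correlated at 0.00668, 0.186 and 0.17. Those of differently numbered libraries were not computed, so these values cannot decide whether the numbers pair the libraries. The main fit had no block.

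With 3 libraries per group, permutation tests of single ratios cannot pass 0.05. Low levels of Abca1 in EpiLCs and of Tm7sf2 in ESCs rest on few counts.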
